A study of Mus musculus with 4 samples.

Results

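The mitochondrial respiratory chain complexes I to IV were described by 73 nuclear genes among the 18193 genes that the array named. Members were chosen by symbol: genes starting with Nduf, the genes Sdha, Sdhb, Sdhc and Sdhd, genes starting with Uqcr, and genes starting with Cox4, Cox5, Cox6, Cox7 or Cox8. Only probe sets paired with a single gene were used, and each gene was represented by its brightest probe set over the 4 arrays. The names gave 34 complex I subunits, 8 complex I assembly factors, 4 subunits of complex II, 8 of complex III, 18 genes of complex IV and the supercomplex factor Cox7a2l. The complex IV count holds Ndufa4 and Ndufa4l2, which carry Nduf names; Ndufa4 was first assigned to complex I and is now placed in complex IV.

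The arrays held RNA from GFP-positive leukemic blasts sorted from 2 mice, without culture and without treatment. The leukemia was an M7 (megakaryoblastic) leukemia, obtained by retroviral insertional mutagenesis of fetal progenitors carrying a Gata1 mutation (Gata1s in the series title), and its cells carried a retroviral GFP tag. Peripheral blood and spleen were taken from each mouse, which gave 2 arrays per tissue, and all 4 samples carry the same designation, T6(6), the Gata1 mutation and the retroviral tag; whether the mice carried 1 leukemia or separate ones is not stated. There was no sample without leukemia, and the labels used here give neither strain nor age. Differences between the tissues were tested against the spread between these 2 animals, which limma moderated toward the typical spread of all tested genes.

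The respiratory chain sits in the inner mitochondrial membrane and passes electrons from NADH and succinate to oxygen. Complex I takes electrons from NADH and complex II from succinate, both hand them to ubiquinone, complex III passes them to cytochrome c and complex IV reduces oxygen. Complexes I, III and IV pump protons, and ATP synthase uses the gradient. Most subunits are encoded in the nucleus and a few in mitochondrial DNA. None of the 11 mitochondrially encoded chain subunits was matched by name, so these are not analysed here.

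Of the labelled cell type's markers, 6 of 8 megakaryocyte genes were on the array and all 6 were above the brightness filter. Their summed intensity was 16472 in blood against 18804 in spleen for mouse 1, and 16482 against 20160 for mouse 2. Higher in spleen in both mice were 5 of the 6 and lower in both were 0, with a median difference of 0.28 on the log2 scale. Markers of other blood cells also differed between the arrays. The summed intensity of 9 neutrophil markers was 6344 in blood against 3644 in spleen for mouse 1, and 15966 against 956 for mouse 2. That of 10 macrophage markers ranged from 1058 in spleen of mouse 2 to 3507 in blood of mouse 2, and that of 8 T and NK cell markers from 4778 to 8951 on the same arrays. In mouse 1 both sums were higher in spleen, with macrophage markers at 1444 in blood against 2059 and T and NK cell markers at 6474 against 7457. The single markers were split. Of those above the filter, 3 of 6 macrophage markers and 3 of 7 T and NK cell markers were higher in spleen of mouse 1. Their median differences in mouse 1 were 0.20 and -0.05. Of the defining macrophage markers, C1qa, C1qb, C1qc and Cd14 were below the filter. Also below it were the neutrophil markers Camp and Csf3r, the T cell marker Cd3d, the B cell markers Cd79a, Cd79b and Ms4a1 and the erythroid markers Alas2, Epb42 and Hba-a1. The 5 B cell markers summed to between 759 and 876 and the 4 erythroid markers to between 681 and 765. The 14 mitosis genes summed to 9744 and 10225 in blood and to 16185 and 18116 in spleen. The part of these differences in the values below was not tested. In sorted samples of this kind, fewer cells of a type and less RNA per cell cannot be told apart.

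Several respiratory chain genes are textbook targets of the transcription factors NRF1 (nuclear respiratory factor 1), the ETS family factor GABP and YY1. Promoter windows from 250 bases before to 50 bases after the start were found in the RefSeq table of mouse build GRCm38.p6 for 59 of the 73 members, 61 windows in all. The letters searched, on both strands, were CCGGAAG for ETS factors, AAGATGGCG for YY1 and, for NRF1, the 10-letter palindrome in capitals in the Ndufaf4 window printed here. None of the motifs contains another. The NRF1 letters were in 4 of the 61 member windows (6.56%), against 0.971% of all 32851 windows and 1.93% of the windows of all genes tested. The ETS letters were in 13 (21.3%), against 8.86% of all and 16.7% of those tested, and the YY1 letters in 5 (8.2%), against 1.4% and 2.84%. The NRF1 windows were those of Cox6a1, Ndufaf4, Ndufaf5 and Uqcrc1. The windows of members higher in spleen in both mice held the ETS letters in 5 of 33 cases and those of the other tested members in 8 of 23. Shown are the 200 bases before the start, 5′ to 3′ on the gene's strand, for the 2 members whose NRF1 letters lie in them and for Cox5a, one of the members with the largest spleen minus blood differences. Capitals mark motif letters, which in Cox6a1 are NRF1 at 162 bases and ETS, on the opposite strand, at 16 bases before the start, and in Ndufaf4 NRF1 at 113 bases.
Cox6a1 (chr5:115348959-115349158, minus strand): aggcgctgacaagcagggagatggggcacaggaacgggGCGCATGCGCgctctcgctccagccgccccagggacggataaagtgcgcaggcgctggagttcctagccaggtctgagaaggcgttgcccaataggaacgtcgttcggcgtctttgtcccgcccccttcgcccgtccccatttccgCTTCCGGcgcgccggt
Ndufaf4 (chr4:24897883-24898082, plus strand): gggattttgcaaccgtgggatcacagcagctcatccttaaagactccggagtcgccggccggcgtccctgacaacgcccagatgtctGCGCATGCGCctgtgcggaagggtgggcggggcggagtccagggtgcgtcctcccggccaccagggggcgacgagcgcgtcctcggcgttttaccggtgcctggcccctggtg
Cox5a (chr9:57521032-57521231, plus strand): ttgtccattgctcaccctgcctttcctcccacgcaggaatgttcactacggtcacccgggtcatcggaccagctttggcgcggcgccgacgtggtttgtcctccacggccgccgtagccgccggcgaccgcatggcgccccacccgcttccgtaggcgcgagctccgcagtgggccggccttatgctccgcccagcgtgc
Of the 4 members with the NRF1 letters, Uqcrc1 and Ndufaf5 were higher in spleen in both mice and Cox6a1 and Ndufaf4 lower, by their brightest probe sets. A second probe set was higher in both mice for Cox6a1 (0.08 and 0.02) and for Ndufaf4 (0.14 and 0.10), so the side of these genes depends on the probe set. The Cox5a window holds none of the 3 motifs. Such matches are letters in a window and show no binding.

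Respiratory chain genes were bright on all arrays. Of the 73 members, 68 reached the brightness filter, a mean intensity of 106, and were tested. That is 93.2% of the members, against 63.8% of all genes. A mean intensity of at least 1000 was found for 53 members. The 5 members below the filter were the tissue isoforms Cox6b2, Cox7a1, Cox7b2 and Cox8b of complex IV and the complex I subunit Ndufb4. Just inside the filter were Cox6a2 with a mean of 159 ± 29.3 (SD, n = 4 arrays) and Ndufaf5 with 167 ± 8.58, and just outside were Cox8b with 82.8 ± 15.0 and Ndufb4 with 59.0 ± 8.17. A brighter probe set of Ndufb4 is shared with another gene and was left out by the rule.

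By complex, the median intensity of the tested members was 2070 for complex I subunits (range 511 to 4500), 352 for complex I assembly factors (167 to 2157), 2164 for complex II (1893 to 3001), 2404 for complex III (1495 to 7961) and 4111 for complex IV (159 to 6976). These are levels of probe sets, which differ in brightness, so the complexes are not ranked by them. The members varied little across the arrays. Their median SD over the 4 arrays was 0.098 on the log2 scale, against 0.147 for all tested genes and 0.120 for the 2622 tested genes with a mean intensity of at least 1000. The cytosolic ribosomal proteins, a bright group used here as a reference, had a median SD of 0.045.

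Most members were slightly higher in spleen than in blood, and no single member passed the test over all genes. The median difference, spleen minus blood on the log2(intensity + 16) scale, was 0.10 over both mice, a level in spleen 7.48% above that in blood. It was 0.14 in mouse 1 and 0.07 in mouse 2, while the medians of all 11614 tested genes were 0.07 and 0.01. Higher in spleen in both mice were 41 of 68 members (60.3%), where 38.5% of all tested genes were, and 5 members (7.35%) were lower in both, where 25.1% were. Among tested genes of intensity 1000 or more, 49.0% were higher and 525 of 2622 lower in both mice, and among members of that brightness 35 of 53 and 2 of 53 were. Both spleen arrays stood above both blood arrays for 32 members (47.1%, against 27.5% of all genes) and below them for 4 (5.88%, against 17.6%). With quantile normalization 34 members were higher in both mice (50%, against 34.4% of all genes) and 18 lower, against 5 as deposited. The number lower in both thus depended on the scaling, and the share of all genes lower in both under this scaling is not given here.

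With limma, 0 of 68 members and 0% of all tested genes had an adjusted p under 0.05, and the smallest adjusted p among members was 0.188. At an unadjusted p under 0.05, 5 members were higher in spleen (7.35%, against 8.12% of all genes) and 2 lower (2.94%, against 4.31%), shares near or below those of all genes. The SE of a member's difference, taken from limma's moderated spread, lay between 0.11 and 0.19. It can exceed what that member's own 4 arrays would give. Across the 68 members the difference in mouse 1 and that in mouse 2 correlated at r = 0.67, at r = 0.45 without Cox7c, and over all tested genes at r = 0.35. These are correlations across genes, which are not independent and share arrays and scaling.

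**Figure D1:**
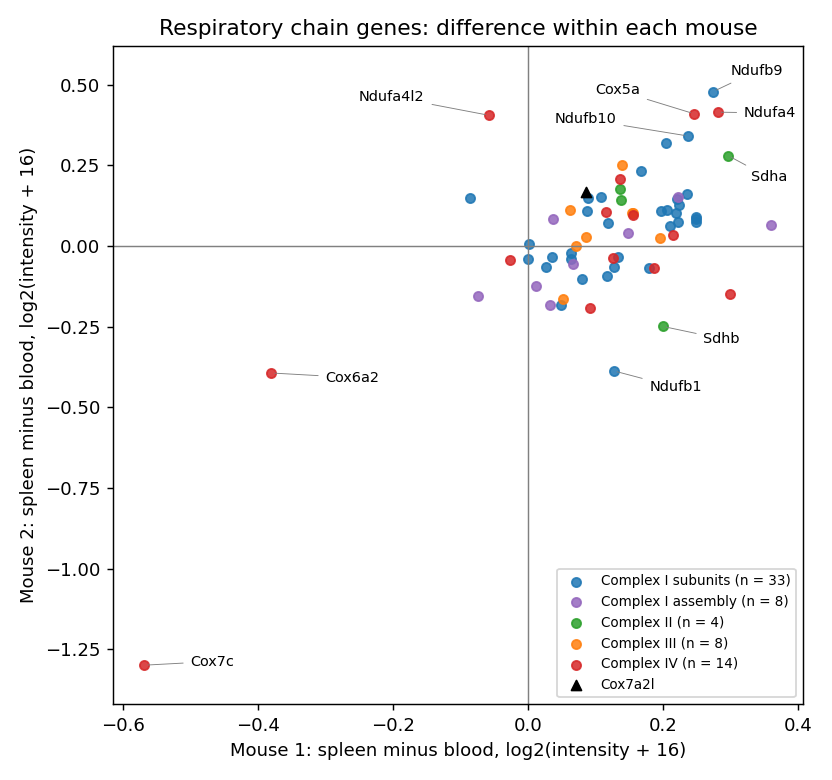
Spleen minus blood on the log2(intensity + 16) scale in mouse 1 (x axis) and mouse 2 (y axis), 1 point per tested member, coloured by complex. The upper right quadrant holds 41 of 68 members, the lower right 20, and Cox7c and Cox6a2 lie apart at the lower left.

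One array stood apart. Blood of mouse 1 was the lowest array for 46 of the 68 members (67.6%), where it was the lowest for 27.4% of all tested genes. Without this array the median difference of the members was 0.06 and 41 members had a difference above 0, against 54 of 68 with all arrays. That is 60.3% of the members, against 53.4% of all tested genes, whose median without the array was 0.02. Of the members, 61 were higher in spleen in mouse 1 (89.7%, against 62.3% of all genes) and 43 in mouse 2 (63.2%, against 51.1%). All but 2 of the 22 members of opposite direction were higher in mouse 1 and lower in mouse 2.

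Intensities are given as blood against spleen within each mouse. Complex I, the NADH dehydrogenase, had a median spleen minus blood value of 0.13 (mouse 1) and 0.07 (mouse 2) over its 33 tested subunits. Higher in both mice were 20 subunits (60.6%, against 38.5% of all tested genes). Lower in both was 1 (3.03%, against 25.1%), Ndufa7, at 3767 against 3766 for mouse 1, and 3789 against 3684 for mouse 2. Another bright Ndufa7 probe set, at a mean of 2895, was higher in both by 0.12 and 0.08, so the direction of this gene depends on the probe set. Ndufb9, an accessory subunit of the membrane arm, measured 2866 in blood against 3470 in spleen for mouse 1, and 2773 against 3870 for mouse 2. Both spleen arrays stood above both blood arrays, and the difference was 0.38 ± 0.12 (SE, 2 arrays per tissue; limma adjusted p = 0.331). Of the other probe sets of Ndufb9, 1 differed by 0.29 and a dim one, at a mean of 208, by -0.20. Ndufb10, also of the membrane arm, measured 1404 against 1658 for mouse 1, and 1354 against 1719 for mouse 2, a difference of 0.29 ± 0.11 (adjusted p = 0.376). Ndufa9, at the junction of the membrane and matrix arms, measured 1362 against 1571 for mouse 1, and 1379 against 1723 for mouse 2, again with no overlap of the tissues.

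The core subunits of complex I carry its flavin and its iron-sulfur clusters, and 6 of the 7 encoded in the nucleus were measured. Ndufv1, which binds NADH and the flavin, measured 1539 in blood against 1778 in spleen for mouse 1, and 1633 against 1765 for mouse 2, a difference of 0.16 ± 0.11. Its partner Ndufv2 measured 2560 against 2725 for mouse 1, and 2665 against 2956 for mouse 2. Ndufs8, an iron-sulfur subunit, measured 2218 against 2585 for mouse 1, and 2443 against 2622 for mouse 2. In these 3 of the 6 genes the tissues did not overlap (50%, against 27.5% of all tested genes). The largest core subunit, Ndufs1, measured 995 against 1163 for mouse 1, and 1192 against 1255 for mouse 2, so that spleen of mouse 1 lay below blood of mouse 2. Ndufs7, which carries the last iron-sulfur cluster before ubiquinone, measured 1832 against 1879 for mouse 1, and 2211 against 2158 for mouse 2, and differed more between the mice than between the tissues. Ndufs3 measured 1562 against 1591 for mouse 1, and 1595 against 1523 for mouse 2 and varied least of the 6, with an SD of 33.3.

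Accessory subunits surround the core, and 16 of the 27 tested were higher in both mice (59.3%, against 38.5% of all tested genes). Ndufb1, a small membrane subunit, differed most between the mice within complex I, at 508 in blood against 557 in spleen for mouse 1, and 557 against 422 for mouse 2. Its lowest array was spleen of mouse 2, as for the summed neutrophil markers. Blood of mouse 2 and spleen of mouse 1 were its highest arrays and almost equal, unlike in those sums. Ndufa6 was steady, at 2956 against 2958 for mouse 1, and 2855 against 2866 for mouse 2. The 95% interval of its tissue difference ran from -0.27 to 0.27. Ndufa12, at 2609 against 2729 for mouse 1, and 3099 against 3054 for mouse 2, had 3 bright probe sets with differences between -0.003 and 0.03 and a dim one, at a mean of 70.2, with -0.56.

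The 8 Ndufaf genes encode assembly factors, which build complex I and are not part of it. They had median differences of 0.05 in mouse 1 and -0.0080 in mouse 2. In both mice 4 were higher (50%, against 38.5% of all tested genes) and 1 lower (12.5%, against 25.1%). Ndufaf2 measured 420 in blood against 493 in spleen for mouse 1, and 455 against 507 for mouse 2, a difference of 0.19 ± 0.11. Ndufaf5, near the filter, measured 159 against 164 for mouse 1, and 168 against 179 for mouse 2. Ndufaf6 measured 215 against 281 for mouse 1, and 258 against 271 for mouse 2, so its difference came mostly from mouse 1. Ndufaf4 was the 1 assembly factor lower in both mice, at 994 against 944 for mouse 1, and 983 against 882 for mouse 2; its second probe set differed by 0.12 in the other direction.

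**Figure D2:**
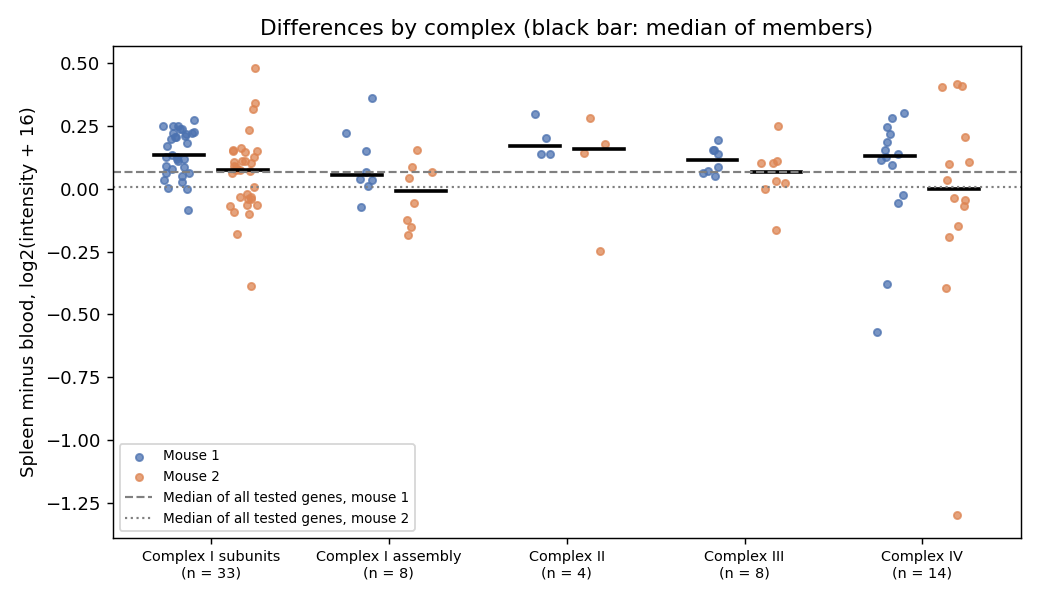
Spleen minus blood on the log2(intensity + 16) scale for the tested members of each complex (Cox7a2l is not drawn), mouse 1 and mouse 2 side by side, with black bars at the medians. Dashed and dotted lines mark the medians of all tested genes, 0.07 in mouse 1 and 0.01 in mouse 2; the bar of complex II is at 0.17 in mouse 1 and 0.16 in mouse 2, and that of complex IV is at 0.13 in mouse 1 and -0.0016 in mouse 2.

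Complex II, succinate dehydrogenase, is shared with the citric acid cycle and has 4 subunits. Sdha, the flavoprotein that oxidises succinate, measured 1968 in blood against 2420 in spleen for mouse 1, and 2090 against 2542 for mouse 2. The tissues did not overlap, and the difference was 0.29 ± 0.11 (limma adjusted p = 0.388), nearly the same in both mice. Its other bright probe set differed by 0.19, and its dim ones, at means of 95.9 and 58.0, by 0.54 and -0.41. Sdhb, the iron-sulfur subunit, measured 2830 against 3253 for mouse 1, and 3217 against 2704 for mouse 2, and went in opposite directions in the mice. The membrane anchors were alike in both mice: Sdhc measured 1763 against 1941 for mouse 1, and 1815 against 2053 for mouse 2, and Sdhd measured 1985 against 2187 for mouse 1, and 1957 against 2161 for mouse 2. Their differences were 0.16 ± 0.11 and 0.14 ± 0.11, again without overlap of the tissues. With Sdha, 3 of the 4 subunits had no overlap (75%, against 27.5% of all tested genes).

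Complex III, the cytochrome bc1 complex, had a median spleen minus blood value of 0.11 (mouse 1) and 0.07 (mouse 2). Of its 8 members, 7 were higher in both mice (87.5%, against 38.5% of all tested genes). The median over both mice was 0.10 with all arrays and 0.021 without blood of mouse 1. Uqcrc1, a core protein, measured 2427 in blood against 2674 in spleen for mouse 1, and 2619 against 3119 for mouse 2, a difference of 0.19 ± 0.13 (limma adjusted p = 0.574). The other core protein, Uqcrc2, measured 2949 against 3379 for mouse 1, and 3206 against 3261 for mouse 2. The Rieske iron-sulfur protein Uqcrfs1 measured 1836 against 2046 for mouse 1, and 1995 against 2143 for mouse 2. The tissues did not overlap in these 3 genes.

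Of the small subunits of complex III, Uqcrh measured 3262 against 3635 for mouse 1, and 3117 against 3344 for mouse 2, and was the only other member of the complex with no overlap. That made 4 of 8 members with both spleen arrays above both blood arrays (50%, against 27.5% of all tested genes). Uqcrq measured 1353 against 1414 for mouse 1, and 1543 against 1668 for mouse 2. Uqcr10 measured 1930 against 2050 for mouse 1, and 2186 against 2231 for mouse 2, and Uqcr11 measured 1646 against 1730 for mouse 1, and 1858 against 1858 for mouse 2. Uqcr11 thus counted as higher in both mice by a mouse 2 difference of only 7.7e-05. In Uqcrq, Uqcr10 and Uqcr11 both arrays of mouse 2 were above both of mouse 1. Uqcrb measured 7520 against 7796 for mouse 1, and 8732 against 7796 for mouse 2, and was the member of complex III that was lower in spleen of mouse 2. A second Uqcrb probe set, at a mean of 2537, differed by 0.30 with spleen higher in both mice, so the direction of Uqcrb depends on the probe set.

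Complex IV, cytochrome c oxidase, held the most negative difference of all members and 2 of the 5 genes with an unadjusted p under 0.05 and higher levels in spleen. Of its 14 tested members, 6 were higher (42.9%) and 3 lower (21.4%) in both mice, near the 38.5% and 25.1% of all tested genes. The medians were 0.13 in mouse 1 and -0.0016 in mouse 2. Over both mice the median was 0.09 with all arrays and 0.029 without blood of mouse 1. Cox5a measured 4307 in blood against 5112 in spleen for mouse 1, and 3986 against 5301 for mouse 2, a difference of 0.33 ± 0.11 (limma adjusted p = 0.354). Its other probe sets differed by 0.24 and 0.19, with spleen higher in both mice. Ndufa4 measured 2109 against 2567 for mouse 1, and 2056 against 2746 for mouse 2, a difference of 0.35 ± 0.11 (adjusted p = 0.341). In both genes the tissues did not overlap, and mouse 2 showed the larger difference.

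Other common subunits of complex IV, Cox7c aside, were bright and differed less between the tissues than Cox5a and Ndufa4. Cox4i1 measured 4502 against 4878 for mouse 1, and 4769 against 5132 for mouse 2, a difference of 0.11 ± 0.11 with no overlap of the tissues. Cox6a1 measured 6796 against 6670 for mouse 1, and 7332 against 7108 for mouse 2, and was lower in spleen in both mice by at most 0.04. A second bright Cox6a1 probe set, at a mean of 5532, was higher in both, by 0.08 and 0.02, so the direction of Cox6a1 depends on the probe set. Cox7a2 measured 5318 against 6177 for mouse 1, and 5868 against 6006 for mouse 2, a difference of 0.12 ± 0.12 with no overlap. Cox8a measured 3568 against 3805 for mouse 1, and 3997 against 3497 for mouse 2, and Cox5b, with 4243, 4832, 4580 and 4364 in blood and spleen first of mouse 1 and then of mouse 2, likewise turned direction between the mice. Cox6b1, with 5289, 5775, 5756 and 5611 in the same order, also did so. Cox6c was higher in both mice with a difference of 0.13 ± 0.12 and no overlap.

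Cox7c, a common subunit, was the member with the largest difference. Its brightest probe set paired with the single gene measured 213 in blood against 139 in spleen for mouse 1, and 298 against 112 for mouse 2. The tissues did not overlap, and the difference was -0.93 ± 0.19 (limma adjusted p = 0.188, 95% interval -1.39 to -0.48). This probe set was dim, at a mean of 190. The second, dimmer one, at a mean of 54.3, differed by -0.66. The order of the 4 arrays was that of the summed neutrophil markers, from blood of mouse 2 down through blood and spleen of mouse 1 to spleen of mouse 2, and their part in the result was not tested. Of the tested members, 5 had this highest and this lowest array (7.35%, against 11.9% of all genes): Cox7c, Cox8a, Ndufa7, Ndufb1 and Ndufs3. In Ndufb1 and Ndufs3 spleen of mouse 1 was almost as high as blood of mouse 2, at 556.6 against 556.9 and at 1591 against 1595.

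Tissue isoforms of complex IV replace a common subunit in particular organs. The heart and skeletal muscle isoform Cox6a2 measured 170 in blood against 127 in spleen for mouse 1, and 193 against 143 for mouse 2, a difference of -0.39 ± 0.13 (limma adjusted p = 0.344), with no overlap and near the filter. The other isoforms of muscle, Cox7a1 and Cox8b, were below the filter, with 30.8, 31.0, 19.2 and 24.0 for Cox7a1 and 81.1, 97.3, 62.6 and 90.3 for Cox8b in the order blood and spleen of mouse 1 and of mouse 2. Of isoforms known from testis, Cox6b2 was below 0 on every array, between -25.5 and -4.20, and Cox7b2 lay between -12.4 and 35.7. Cox8c was above the filter, at 560 against 692 for mouse 1, and 756 against 680 for mouse 2. Cox4i2, an isoform of lung that hypoxia induces, measured 265 against 292 for mouse 1, and 203 against 237 for mouse 2. Ndufa4l2, another gene induced by hypoxia, measured 178 against 171 for mouse 1, and 161 against 218 for mouse 2, so only spleen of mouse 2 stood apart.

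**Figure D3:**
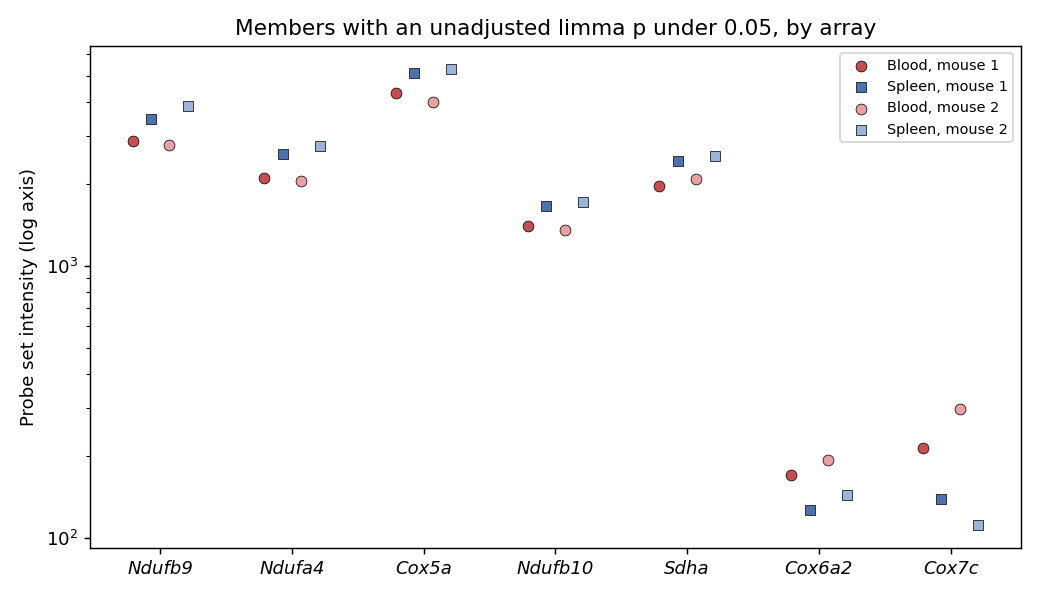
Probe set intensity (log axis) on each of the 4 arrays for the 7 members with an unadjusted limma p under 0.05; circles are blood and squares spleen. In Ndufb9, Ndufa4, Cox5a, Ndufb10 and Sdha both spleen arrays lie above both blood arrays, and in Cox6a2 and Cox7c below them.

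Levels also differed between the animals. Mouse 2 stood above mouse 1 in both tissues for 27 members (39.7%, against 27.4% of all tested genes) and below it in both for 7 (10.3%, against 30.7%). The median of mouse 2 minus mouse 1 was 0.10 in blood and -0.0025 in spleen. Cox7a2l, which joins complexes III and IV into supercomplexes, was among the 7: it measured 4113 in blood against 4369 in spleen for mouse 1, and 3224 against 3625 for mouse 2. Both arrays of mouse 2 were below both of mouse 1, with 1 animal per side and no test.

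Most lists of genes that work with the chain also held more genes higher than lower in both mice, as did all tested genes (38.5% against 25.1%). Cytochrome c itself, Cycs, measured 4614 in blood against 5153 in spleen for mouse 1, and 4459 against 5130 for mouse 2, and Cyc1, the cytochrome c1 subunit of complex III that the symbol rule leaves out, measured 1976 against 2342 for mouse 1, and 2338 against 2782 for mouse 2. Of 17 ATP synthase genes, 11 were higher (64.7%) and 1 lower (5.88%) in both mice, with a median difference of 0.10. Of 12 citric acid cycle genes, 11 were higher and 0 lower in both, with a median of 0.17, and Dld, the lipoamide dehydrogenase shared by several dehydrogenase complexes, differed by 0.43 ± 0.14 (limma adjusted p = 0.348). Of 76 mitochondrial ribosomal protein genes, 55 were higher (72.4%) and 2 lower (2.63%), with a median of 0.11. Of 25 assembly factors of complexes II to IV, 10 were higher (40%, near the share of all tested genes) and 1 lower (4%). Lrpprc, which stabilises mitochondrial messenger RNA, led these at 726 against 925 for mouse 1, and 756 against 1064 for mouse 2.

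The 41 tested cytosolic ribosomal protein genes did not share this direction: 11 were higher and 16 lower in both mice, with a median of -0.01. Of the genes in these other lists, none had an adjusted p under 0.05 with limma, and the number with an unadjusted p under 0.05 was 1 of 17 for ATP synthase, 1 of 12 for the citric acid cycle, 1 of 25 for the assembly factors of complexes II to IV, 4 of 76 for the mitochondrial ribosome and 1 of 41 for the cytosolic ribosome, all higher in spleen. These are shares of 2.44% to 8.33%, near or below the 8.12% of all tested genes. The regulators had 3 of 10 higher and 1 lower. Differences between these lists and the chain were not tested.

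**Figure D4:**
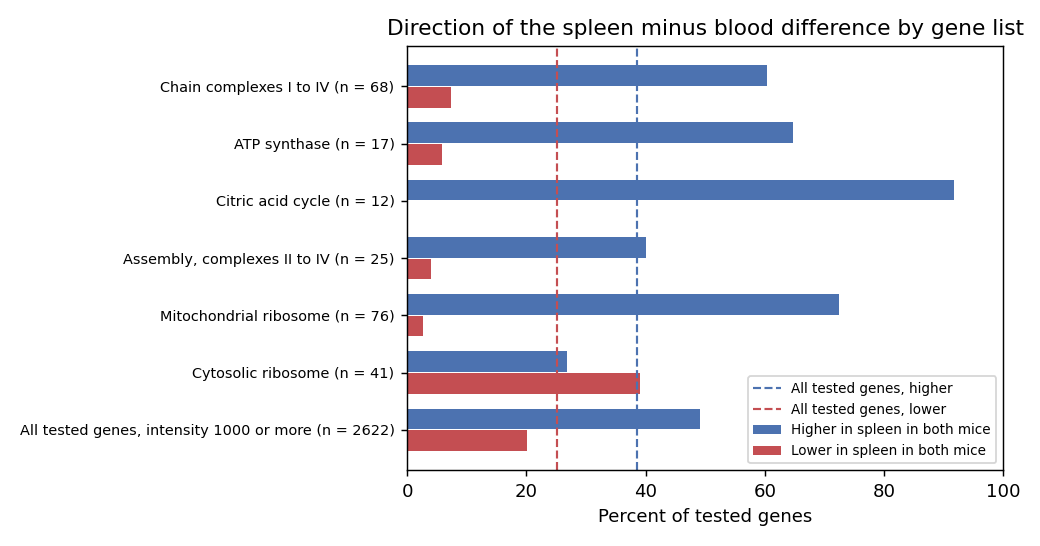
Percent of tested genes higher (blue) or lower (red) in spleen in both mice, for the chain and related gene lists, with dashed lines at the shares of all tested genes, 38.5% higher and 25.1% lower. The chain stands at 60.3% and 7.35%, and the cytosolic ribosome at 26.8% and 39.0%.

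Among 10 tested regulators of respiratory genes, 6 were higher (60%, against 38.5% of all tested genes) and 1 lower (10%, against 25.1%) in both mice. Polrmt, the RNA polymerase that transcribes mitochondrial DNA, measured 687 in blood against 1275 in spleen for mouse 1, and 705 against 1144 for mouse 2, a difference of 0.78 ± 0.12 (limma adjusted p = 0.140). The tissues did not overlap. It was 0.40 with the mean of all its probe sets, and with an intensity trend in the prior it passed the threshold. The GABP subunits Gabpa and Gabpb1 differed by 0.44 ± 0.12 and 0.32 ± 0.11 (adjusted p = 0.285 and 0.357), and with all probe sets averaged Gabpa differed by 0.26. Tfam, which packages mitochondrial DNA, measured 984 against 1181 for mouse 1, and 1010 against 1193 for mouse 2. Its difference was 0.25 ± 0.11, and 0.053 with the mean of all its probe sets. Nrf1 measured 407 against 378 for mouse 1, and 370 against 372 for mouse 2, with a difference of -0.05 ± 0.12. Ppargc1b, a coactivator of respiratory genes, was dim and lower in spleen, at 149 against 119 for mouse 1, and 134 against 95.9 for mouse 2.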

How the data were processed

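Intensities of 45101 probe sets on a linear scale, 1 column per array, were used as deposited; how the authors summarised probes, subtracted background and scaled arrays is stated in neither labels nor files used here. Array medians lay between 103.7 and 110.6, and 1.60% to 2.17% of values were below 0. From the deposited intensities log2(value + 16) was computed, with values below 0 set to 0, which understates differences of dim genes. The platform annotation paired 34945 probe sets with 1 symbol and 932 with several, 9160 were not listed and 64 were controls; symbols were updated through Entrez identifiers with RefSeq. The 11614 of 18193 genes with a mean at or above the median of all probe sets were fitted with limma 3.58.1 in R 4.3.3 (lmFit, eBayes, two-sided, tissue as sole term), with Benjamini-Hochberg adjustment over all of them. The fit was tested on simulated data. Mouse pairs the arrays because the labels name the same animal; across genes, mouse differences in blood and in spleen correlated at r = 0.10. Values on each array are given for genes chosen by a stated rule (leading differences, core subunits, isoforms, smallest p, probe sets that disagree) and for some further members and pathway genes as examples. The members and lists were chosen with earlier results of these data known. Alternatives were scaling, offset, filter, probe set choice, prior, mouse as a block and leaving out each array; the comparison with genes of intensity 1000 or more was added after the data were seen. Precision is limited by the number of arrays.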

Additional observations from a re-analysis of the deposited data

How the results depend on the processing

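No member was called under any of the 14 alternatives. Over all genes, 0 were called with mouse as a replicate block, as without it, and the block changed no other call; 45 were called with an intensity trend, and between 0 and 20 when 1 array was left out, the 20 without spleen replicate 1. The median difference of all members was 0.047 with quantile normalization, and 0.041 above that of all genes, against 0.075 above it as deposited; this excess was 0.035 without spleen replicate 2, 0.039 without blood replicate 1, 0.093 without spleen replicate 1 and 0.104 without blood replicate 2. The median difference itself, not the excess, was 0.050 for complex I subunits, 0.065 for complex II and 0.036 for complex III with quantile normalization. With centred arrays the median difference was 0.16 for complex I subunits, 0.077 for its assembly factors, 0.19 for complex II and 0.14 for complex III. With the mean of all probe sets it was 0.078 for the assembly factors and 0.16 for complex II. Leaving out 1 array gave 0.058 to 0.14 for all members, 0.083 to 0.17 for complex I subunits, 0.000567 to 0.077 for the assembly factors, 0.13 to 0.16 for complex II, 0.021 to 0.16 for complex III and 0.029 to 0.11 for complex IV. Without blood replicate 1 complex III was at 0.021 and complex IV at 0.029, and without spleen replicate 2 complex III was at 0.04. Members above 0 numbered 42 with quantile normalization (61.8%, against 51.5% of all genes) and 59 with centred arrays (86.8%, against 64.1%). As deposited they numbered 54 (79.4%, against 55.9%). Without 1 array they numbered 41 to 57. The 41 were without blood replicate 1 (60.3%, against 53.4%) and the 57 without blood replicate 2 (83.8%, against 56.9%). Of the 68 members, 37 kept their direction under all alternatives, and the share of all genes that did so is not given here. With centred arrays the median of all genes was 0.072 and the excess of the members 0.075, the same as deposited. The cause of the shifts under the other alternatives was not tested. Dim probe sets and 2 animals limit what can be seen.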
